A study of Drosophila mettleri with 18 samples.

Results

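Larvae of the fly Drosophila mettleri from Santa Catalina Island were compared with larvae of the Sonoran population after rearing on lab food, Drosophila 4-24 Instant food, which holds neither of the cacti used elsewhere in the study. The comparison takes the 6 lab food libraries of 18 in all, 3 strains of each population with 1 library per strain, chosen by their food and population labels and not by any measured value. The Santa Catalina strains are C-M, C-7 and C-9 and the Sonoran strains are T-22, T-27 and T-28. Each library is the total RNA of 10 pooled larvae aged 8 days, described as being in the third instar, and was divided over 2 sequencing lanes. The other 12 libraries hold the same 6 strains reared on coastal prickly pear or saguaro and are used below only beside the lab food values. The labels do not state the sex of the larvae or how each strain was founded.

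Drosophila mettleri is a desert fly whose larvae live in soil soaked with the juice of rotting cacti. Sonoran Desert flies use columnar cacti such as saguaro, whereas flies of Santa Catalina Island live where prickly pear is the cactus at hand. Cactus tissue carries compounds that larvae have to tolerate or break down, and enzymes such as cytochrome P450s are known for that role in this group of flies. On a common food without cactus, a difference between strains of the populations is read apart from any difference in the host plant eaten.

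Transcripts were assembled without a genome, and the table gives counts per assembled gene, called a feature here and with a name that gives its assembly component first. Gene names do not accompany the features, so no feature is given a function and the larval origin of the RNA could not be checked with marker genes. Per the series' design text, splice forms were merged within a feature. Different features of a component can be related gene copies, diverged alleles or pieces of a gene, and the table does not say which. Their sequences were not at hand, so how alike they are was not checked. At most 2 features in each direction are named.

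The 6 libraries held 14088314 to 16115982 counts, and 13758 to 14604 of the 15947 features had at least 1 count. Levels below are CPM (counts scaled to a common library size) scaled with TMM factors, which correct for libraries in which a few abundant transcripts take a larger share of the counts. Features detected averaged 14399 ± 290 in Santa Catalina and 13986 ± 218 in Sonoran (SD, n = 3), a difference that did not pass an exact permutation test (two-sided p = 0.2, with 0.1 the smallest this design can give). The strains are separate stocks with a single pool each, so every p-value sets the populations against variation among strains and among pools.

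The library of C-9 stood apart from the other Santa Catalina libraries over most of the transcriptome. C-M and C-7 differed by more than 2-fold at 638 of 10802 features, and the Sonoran libraries differed from each other at 615 to 910. C-9 differed from C-M at 1485 features and from C-7 at 1590. From the Sonoran libraries it differed at only 685 to 900, which lies within the range among the Sonoran strains themselves. On the first principal component, which held 57.8% of the variance of log2 CPM, C-M and C-7 lay at -54.1 and -58.5, C-9 at 11.2, and T-27, T-22 and T-28 at 25.5, 29.1 and 46.8. What sets C-9 apart was not tested, and results that rest on it are given below with and without it.

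**Figure D1:**
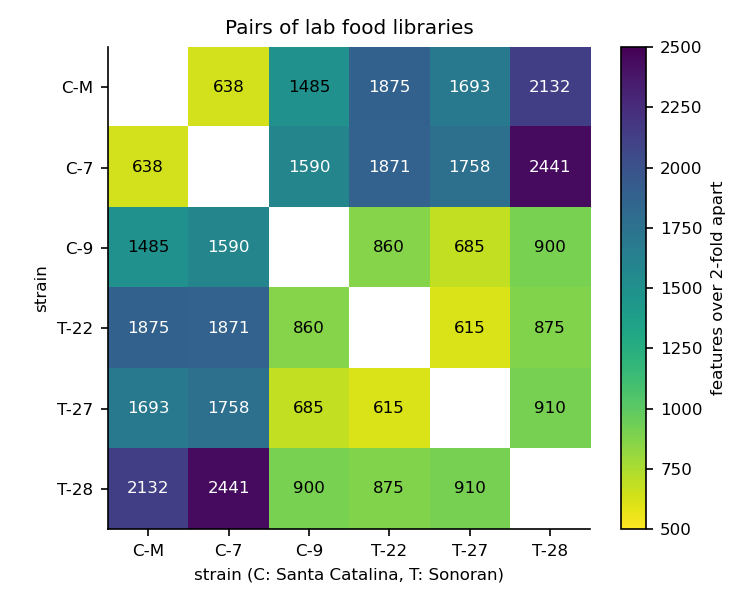
Number of features, of 10802, that differed by more than 2-fold (log2 CPM) between each pair of lab food libraries, with strains on both axes and darker squares for more features. C-M and C-7 form a close pair (638 features), and C-9 lies nearer to the Sonoran strains (685 to 900) than to C-M and C-7 (1485 and 1590).

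Between the populations, 3 features were higher and 3 lower in Santa Catalina than in Sonoran larvae on lab food (edgeR quasi-likelihood test, Benjamini-Hochberg adjusted p below 0.05). These are 0.0278% of the 10802 features tested in each direction and 0.0555% in all. The differences were large: group means differed by 9.63-fold to 89.4-fold for 4 of the 6, by 147-fold for another and by at least 508-fold for the last. In all 6 the libraries of the populations did not overlap. C-9, which helped to choose them, took the Santa Catalina level at each. In a fit without C-9 the 6 features were still called (adjusted p from 0.000490 to 0.00134, edgeR), and on a scale from 0 at the Sonoran mean to 1 at the mean of C-M and C-7, C-9 lay at 0.927 to 1.25.

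**Figure D2:**
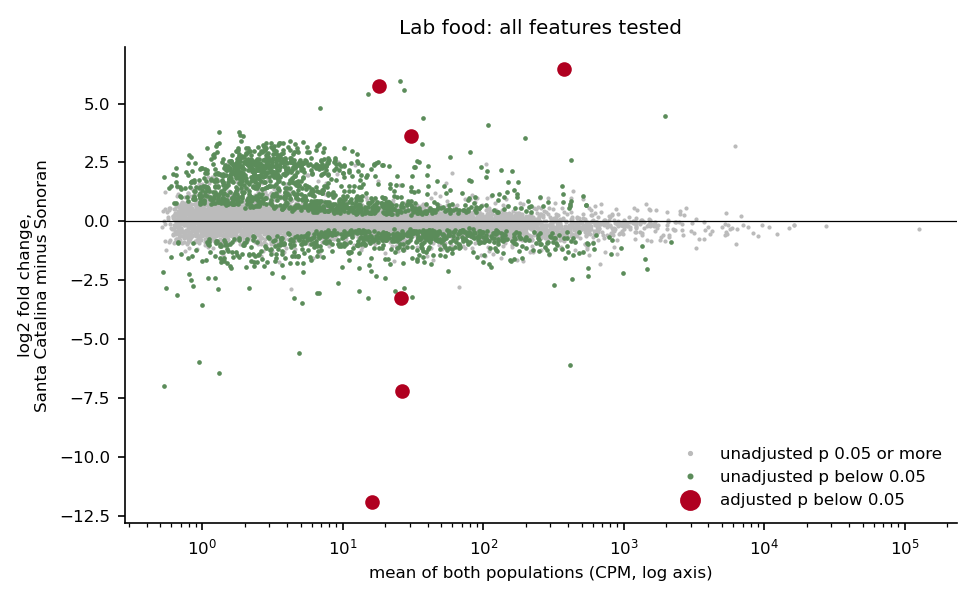
Log2 fold change of Santa Catalina over Sonoran against the mean level of both populations (CPM, log axis), 1 point for each of 10802 features on lab food, coloured by unadjusted and adjusted p. The 6 called features (large red points, 3 above and 3 below 0) include comp37185_c1 at 6.48 and comp34913_c0 at -7.21, and the lowest point is comp37831_c5, whose position depends on the prior count because it had 0 counts in Santa Catalina; features with an unadjusted p below 0.05 at low CPM lie mostly above 0.

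The largest rise in Santa Catalina belonged to comp37185_c1. It had 13186, 9990 and 11170 counts in C-M, C-7 and C-9, or 841, 565 and 808 CPM. In T-22, T-27 and T-28 it had 117, 79 and 146 counts, or 7.62, 6.11 and 11.0 CPM. The lowest Santa Catalina library was thus 51.3-fold above the highest Sonoran one. The means were 738 ± 150 CPM in Santa Catalina and 8.25 ± 2.52 CPM in Sonoran (SD, n = 3), so that the log2 fold change was 6.48 with an SE of 0.35 (adjusted p = 0.000899, edgeR).

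comp35135_c0 was also higher in Santa Catalina, with a wider spread. Its levels were 36.0, 54.3 and 79.1 CPM in C-M, C-7 and C-9, and 3.06, 6.26 and 4.46 CPM in T-22, T-27 and T-28. The Santa Catalina strains spread over more than 2-fold, and C-9 was the highest of them. The log2 fold change was 3.62 (SE 0.38, adjusted p = 0.0482, edgeR), just inside the threshold. The call was lost without C-7, T-22, T-27 or T-28 (adjusted p = 0.118, 0.281, 0.217 and 0.360, edgeR) and with RLE size factors (0.0558). A second feature of component comp35135 went the same way, at 231, 354 and 511 CPM against 20.6, 44.0 and 30.4, but its adjusted p was 0.0732 (edgeR). Both features rank the 6 strains in the same order, and they may share reads, so they are not separate pieces of evidence.

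Of the features lower in Santa Catalina, comp37831_c5 had the largest change. It had 0 counts in C-M, C-7 and C-9, and 433, 582 and 314 counts in T-22, T-27 and T-28, or 28.2, 45.0 and 23.7 CPM. Against a floor of 3 counts over the Santa Catalina libraries, it was at least 508-fold lower there (adjusted p = 0.0163, edgeR). The floor covers counting error only, because the reads carry no molecular identifiers. Without T-22 or T-28 the call was lost (adjusted p = 0.155 and 0.0722, edgeR), while the Santa Catalina counts stayed at 0.

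comp34913_c0, alone in its component, was nearly absent from Santa Catalina larvae. It had 8, 2 and 6 counts in C-M, C-7 and C-9 (0.510, 0.113 and 0.434 CPM) and 802, 449 and 912 counts in T-22, T-27 and T-28 (52.2, 34.7 and 68.9 CPM). The mean was 147-fold lower in Santa Catalina (log2 fold change -7.21, SE 0.48, adjusted p = 0.00306, edgeR). A further called feature, lower in Santa Catalina at 4.88 ± 0.369 against 47.0 ± 4.19 CPM (SD, n = 3), had the smallest fold of the 6 and also the smallest SE (log2 fold change -3.26, SE 0.15, adjusted p = 0.000480, edgeR). The other 5 features of its component, comp37687, had log2 fold changes from -0.40 to 0.20 and none was called (smallest adjusted p 0.439).

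Part of these differences were exchanges between features of a single component. Component comp37831 holds 8 features, and the last of the 6 called features is one of them: it was at 35.2, 41.5 and 28.9 CPM in C-M, C-7 and C-9 and at 0.586, 0.851 and 0.529 CPM in T-22, T-27 and T-28 (log2 fold change 5.74, SE 0.25, adjusted p = 0.000480, edgeR). This is the reverse of its partner comp37831_c5. The pair together averaged 35.2 ± 6.28 CPM in Santa Catalina and 33.0 ± 11.4 CPM in Sonoran (SD, n = 3), so the sums overlapped while the share held by comp37831_c5 went from 0% in every Santa Catalina library to between 97.8% and 98.1% in the Sonoran ones. The other 6 features of the component had log2 fold changes from -0.40 to 0.03, with no adjusted p under 0.390 (edgeR).

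comp37185_c1 had such a partner too. A second feature of comp37185 was at 4.27, 27.7 and 3.11 CPM in C-M, C-7 and C-9 and at 721, 861 and 852 CPM in T-22, T-27 and T-28. C-7 was the high Santa Catalina strain, and the populations did not overlap. The partner was not called over all features (log2 fold change -6.11, SE 0.93, adjusted p = 0.148, edgeR). The pair summed to 750 ± 137 CPM in Santa Catalina and 819 ± 79.0 CPM in Sonoran (SD, n = 3). The partner held 0.506% and 0.383% of the pair's counts in C-M and C-9, 4.67% in C-7, and 98.7% to 99.3% in the Sonoran libraries.

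The strain difference in comp37185 recurred on the cacti. In C-7 the partner held 6.67% of the pair's counts on prickly pear and 22.5% on saguaro, whereas in C-M and C-9 it held between 0.425% and 0.734% on both. In the Sonoran strains it held 98.9% to 99.7%. In comp37831 the share of comp37831_c5 was 0% in all Santa Catalina libraries on prickly pear, and on saguaro it was 0.870% in C-M (9 counts), 0% in C-7 and 0.403% in C-9 (2 counts). Both partners of each pair were selected for their difference on lab food, so the lab food shares are a description, and the cactus shares come from other pools of the same strains.

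**Figure D3:**
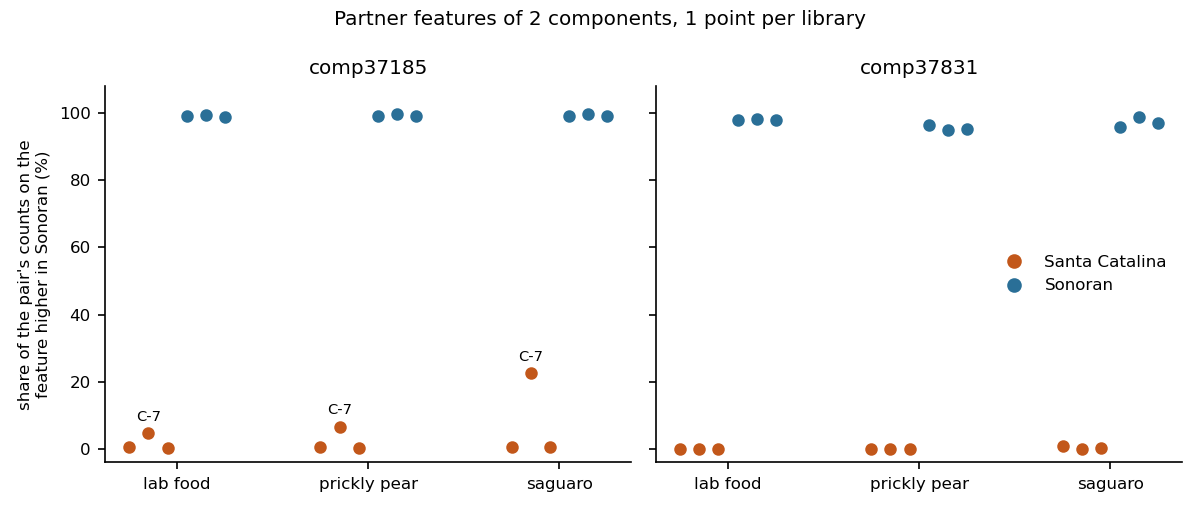
Share (%) of the summed counts of 2 partner features that was held by the feature higher in Sonoran, for components comp37185 and comp37831, by food, with 1 point per library coloured by population. Sonoran libraries lie between 94.8% and 99.7% and Santa Catalina libraries between 0% and 0.870%, apart from C-7 in comp37185 at 4.67%, 6.67% and 22.5%.

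Other components with opposed features were few. Of 1656 components with several features tested, 1 held called features in both directions. Taking features with an unadjusted p below 0.05 and no overlap, 14 components held both directions, and 2 of them, comp37185 and comp37831, had a change over 2-fold on both sides. Among the others the change reached a log2 fold change of 2.69 on the higher side, in comp38184, and -1.45 on the lower, in comp39681. In 12 of the 14, the sums of the opposed features differed between the populations by less than 0.2 on the log2 scale, and the largest difference was 0.87. These components were picked for opposed features, so the near-equal sums are given without a test. When counts were summed over each component before testing, 1 of 7982 components was called, lower in Santa Catalina.

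The 6 called features kept their direction when the same strains ate cactus. All 6 were free of overlap between the populations on prickly pear and again on saguaro. The same test on the 6 prickly pear libraries called 3 features in all (0.0250% of 12013), and those 3 were among the 6: comp37185_c1, comp37831_c5 and the called feature of comp37687. On the 6 saguaro libraries it called 3 (0.0272% of 11045), of which 2 were among the 6, comp37185_c1 and the called feature of comp37687. These are other libraries of the same 6 strains, so they repeat the strains and add no new ones. The saguaro overlap was fragile, at 0 or 1 whichever strain was left out, and the prickly pear overlap was 2 to 5.

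The levels of comp37185_c1 were 756 ± 41.6 CPM on prickly pear and 645 ± 145 CPM on saguaro in Santa Catalina, against 6.78 ± 1.83 and 4.49 ± 2.07 CPM in Sonoran (SD, n = 3). comp35135_c0 was at 53.6 ± 32.9 and 82.5 ± 19.1 CPM on prickly pear and saguaro in Santa Catalina, and at 9.82 ± 3.88 and 8.78 ± 4.20 CPM in Sonoran (SD, n = 3). Neither cactus difference was called for it (adjusted p = 0.747 and 0.208, edgeR). comp37831_c5 was at 46.7 ± 11.2 and 40.5 ± 2.12 CPM in Sonoran on prickly pear and saguaro (SD, n = 3).

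comp34913_c0 was the called feature whose Sonoran level differed most between foods. T-22, T-27 and T-28 held 52.2, 34.7 and 68.9 CPM on lab food, 1.20, 4.01 and 0.649 CPM on prickly pear, and 18.4, 25.0 and 16.5 CPM on saguaro. In Santa Catalina it stayed at 1.21 CPM or less on every food. On prickly pear it had too few counts to pass the filter and was not tested there. The difference of the population gap from that on lab food, tested with strain as a block over all 18 libraries, was not called on prickly pear (log2 difference 2.96, SE 1.87, adjusted p = 0.852) or on saguaro (2.72, SE 0.94, adjusted p = 0.216, edgeR).

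**Figure D4:**
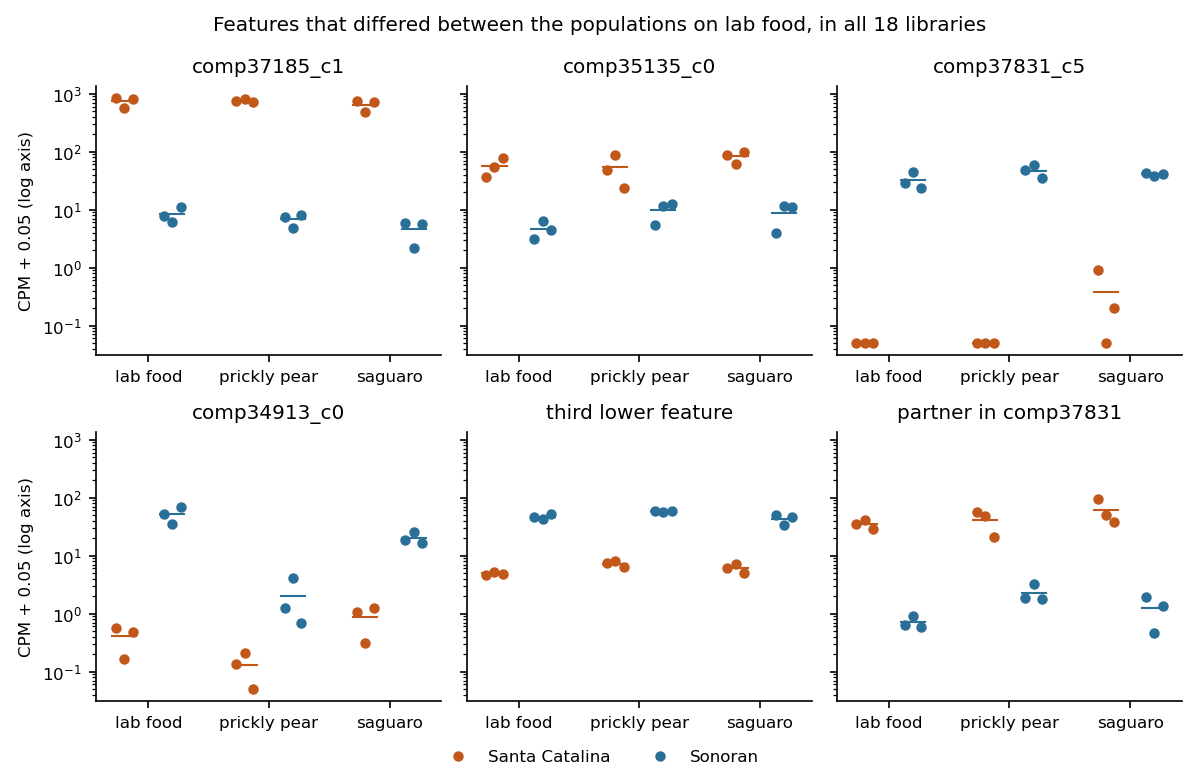
Levels (CPM + 0.05, log axis) of the 6 features called on lab food, by food, in Santa Catalina (orange) and Sonoran (blue) libraries, with 1 point per strain and a bar at the mean. What the panel calls the third lower feature is the called feature of comp37687, and points at the bottom are libraries with 0 counts. The populations are apart for every feature on every food, and comp34913_c0 in Sonoran goes from 34.7 to 68.9 CPM on lab food to 0.649 to 4.01 CPM on prickly pear.

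Beyond the 6 calls lay a broader difference that did not pass the correction over all features. An unadjusted p below 0.05 was reached by 1865 features (17.3% of those tested), 1180 higher and 685 lower in Santa Catalina, where 540 would be reached by chance. These counts varied with the strains and the scaling: they were 734 and 426 without C-M, 763 and 385 without C-7, 2144 and 1511 without C-9, and 1673 and 385 when only library totals were used. The 3 libraries of each population did not overlap at 1192 features that were higher in Santa Catalina (11.0%) and 936 that were lower (8.67%), 19.7% in all. The middle of the distribution was close to 0, with a median log2 fold change of 0.01 and quartiles of -0.24 and 0.29. More than 2-fold differences were estimated for 850 features on the higher side and 310 on the lower.

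The direction of this broad difference went with abundance. Abundance here means counts, not counts per length, since feature lengths were not used. A feature of low counts can pass the filter through the 3 libraries of 1 population alone. What this adds to the pattern by abundance was not tested. With no filter, 1841 features over all levels were higher and 832 lower at an unadjusted p below 0.05 (edgeR). Among 3623 features averaging under 5 CPM, 645 had an unadjusted p below 0.05 and were higher in Santa Catalina and 142 lower, and their median log2 fold change was 0.17. Among 1912 features of 50 to under 500 CPM, 81 were higher and 183 lower by that rule, with a median of -0.14. Among 286 features of 500 CPM or more, 4 were higher and 17 lower, with a median of -0.18. These medians depend on the scaling. When only library totals were used, the median of all features moved from 0.01 to 0.23, and that of the 500 CPM class from -0.18 to 0.03, which turns its sign but leaves it below the median of all features. The 286 most counted features took 61.4% and 60.1% of all counts in C-M and C-7, 65.5% in C-9, and 62.8% to 65.5% in the Sonoran strains, so C-9 again lay with Sonoran. The 3623 features under 5 CPM took 1.14% and 1.22% in C-M and C-7. They took 0.685% in C-9 and 0.656% to 0.757% in the Sonoran strains, so C-9 did not share the higher level of C-M and C-7.

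The number of calls varied with the strains in the fit and with the method. Without C-9, 1517 features were higher (13.0%) and 756 lower (6.46%) in C-M and C-7 than in the 3 Sonoran strains, 19.4% of the 11709 tested (edgeR, adjusted p below 0.05), in place of 6. Leaving out any other strain gave 4 to 7 calls. With DESeq2 and all 6 libraries, 519 features were higher (4.80%) and 212 lower (1.96%), 6.77% of those tested. A fit of 6 group means over all 18 libraries called 16 features for the lab food comparison (0.128% of 12514). A similar abundance pattern was present without C-9, with 1133 higher and 75 lower among 4462 features under 5 CPM. Among 283 features of 500 CPM or more, 3 were higher and 50 lower. Of the calls without C-9, 640 did not pass the filter on low counts once C-9 was included, 639 of them higher. Such features can enter the test through C-M and C-7 alone, so the filter can add to the higher calls at low CPM.

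The C-9 library did not enter the choice of these 2273 features, although the scaling factors of its own level do use it. At 1977 of them (87.0%) C-9 lay nearer to the Sonoran mean than to the mean of C-M and C-7. On the scale from 0 at the Sonoran mean to 1 at the mean of C-M and C-7, its median position was 0.167, with quartiles of 0.0073 and 0.340. The median was 0.160 for the 1517 features higher in C-M and C-7 and 0.195 for the 756 lower ones. The filter on low counts drops 640 of the features once C-9 is included, 639 of them higher in C-M and C-7, and the median was 0.175 at the 1633 that remain. The 1517 higher features took 2.94% and 3.06% of all counts in C-M and C-7, 1.22% in C-9, and 0.771% to 0.854% in the Sonoran strains. The 756 lower ones took 7.49% and 7.01% in C-M and C-7, 12.2% in C-9, and 12.8% to 15.9% in Sonoran. The features were chosen for the distance between the ends of the scale, which is thereby widened.

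**Figure D5:**
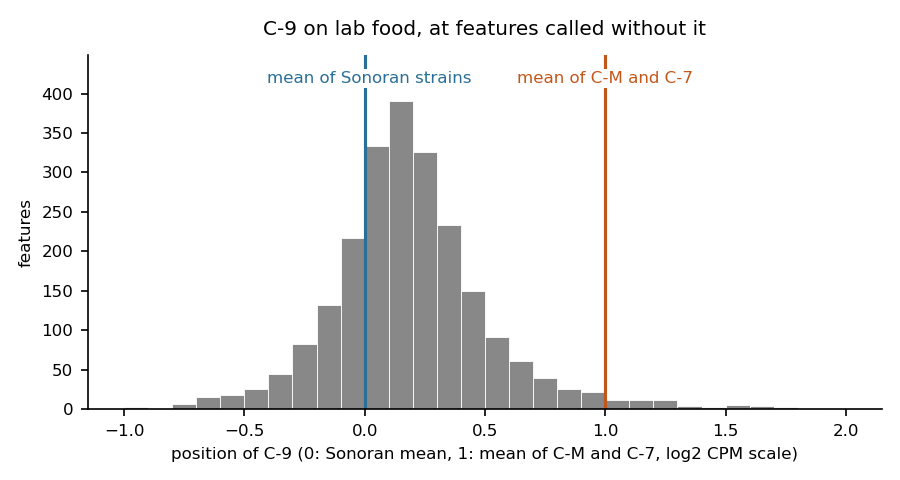
Position of C-9 at the 2273 features called on lab food without it, on a log2 CPM scale with 0 at the mean of the Sonoran strains and 1 at the mean of C-M and C-7 (bars 0.1 wide, positions beyond -1 or 2 in the end bars). The median lies at 0.167, and 1977 features lie nearer to the Sonoran mean.

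The broad difference had smaller medians on the cacti, and its higher side had the opposite sign on saguaro. For the 1180 features higher on lab food at an unadjusted p below 0.05, the median log2 fold change was 1.42 on lab food and 0.40 on prickly pear, where 78.9% of the 1177 tested had the same sign. On saguaro the median was -0.54 and 23.6% of 1163 had the same sign. For the 685 lower features the medians were -0.76 on lab food, -0.08 on prickly pear (62.0% of 635 with the same sign) and 0.11 on saguaro (38.0% of 656). Over all features tested on lab food the same sign was found for 57.3% on prickly pear and 39.1% on saguaro. The foods share the strains but no library. The 1180 and 685 features were chosen on the lab food libraries, which widens their lab food medians. Smaller medians on the other foods would follow from that choice alone.

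Libraries stood apart on the cacti too. C-M on saguaro had 11886 features detected, against 13908 to 14308 in the other 5 saguaro libraries, and lay at -122 on the first principal component of that food with the others at -16.0 to 49.8. C-9 differed from C-7 by more than 2-fold at 2270 features on saguaro and at 2009 on prickly pear. On prickly pear C-9 lay at -62.9 on the first component, with the others at -14.5 to 44.5. It differed there from C-M, T-22 and T-28 at 1265, 1068 and 1097 features. The Sonoran strain T-27 differed from the other 5 strains on prickly pear at 1237 to 2411. For the 1180 higher features, the saguaro median was -0.20 without C-M and -0.43 without C-9, and the prickly pear median was 0.46 without C-9 (72.5% of 1178 with the same sign). For the 685 lower features the cactus medians were near 0 and depended on C-9: without it they turned to -0.10 on saguaro (60.5% of 658 with the same sign) and to 0.01 on prickly pear (49.0% of 647). Without C-M the saguaro median of the lower features was 0.13. The direction of the 6 called features was the same in each of these fits, with 4 of them called on prickly pear without C-9, 1 on saguaro without C-M and 0 on saguaro without C-9.

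Some of the features that set the populations apart on lab food did so on a cactus. Of the 1192 features without overlap and higher in Santa Catalina on lab food, 182 (15.3%) were also so on prickly pear, where the share over all 10802 features was 5.10%, and 72 (6.04%) on saguaro, where it was 3.74%. Of the 936 lower features, 100 (10.7%) were also so on prickly pear, beside 6.94% of all, and 44 (4.70%) on saguaro, beside 4.43%. On all 3 foods 58 of the 10802 features were free of overlap in the same direction, 32 higher and 26 lower in Santa Catalina. By over 2-fold with an unadjusted p below 0.05 and no overlap, 419 features were higher on lab food and 184 lower. Of the 419, 379 of the 417 tested on prickly pear (90.9%) and 81 of the 405 tested on saguaro (20%) had the same sign. Of the 184, 103 of 146 (70.5%) and 83 of 161 (51.6%) had the same sign. Over all features tested on lab food these shares were 57.3% and 39.1%.

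A test of whether the population difference on a cactus differed from that on lab food, with strain as a block, called 0 features for prickly pear and 0 for saguaro (edgeR). These are 0.00% of 12514 features in each case. At an unadjusted p below 0.05 there were 557 and 2332, where 626 would be reached by chance, and DESeq2 called 7 and 752.

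The lab food libraries were also read with features taken from the prickly pear response of the Sonoran strains, a reading chosen after seeing the data. In the Sonoran strains alone, 2404 features rose on prickly pear relative to lab food and 2503 fell, of 11542 tested (edgeR, adjusted p below 0.05). No Santa Catalina library entered that choice. On lab food, the 2404 features took 5.31% of all counts in C-M, 9.77% in C-7 and 3.15% in C-9, beside 2.56% to 3.21% in the Sonoran strains, whose lab food values helped choose them. The 2503 features took 59.9%, 54.8% and 65.8% in C-M, C-7 and C-9, beside 66.5% to 69.6% in Sonoran. On prickly pear the 2404 features took 17.9%, 10.1% and 25.3% in C-M, C-7 and C-9. They took 15.0% to 19.2% there in the Sonoran strains, whose prickly pear values also helped choose them. On saguaro they took 5.29%, 8.68% and 2.86% in C-M, C-7 and C-9, and 5.26%, 4.12% and 13.8% in T-22, T-27 and T-28. C-7 thus held nearly the same share on lab food as on prickly pear, and C-9 had the lowest share of the Santa Catalina strains on lab food and the highest on prickly pear.

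Complete absence in a population was rare. With 0 counts in all 3 libraries of a population and at least 10 in each of the other, 2 features were absent from Santa Catalina on lab food and 0 from Sonoran. One was comp37831_c5. The other, with 12, 12 and 20 counts in T-22, T-27 and T-28, was not called (adjusted p = 0.151, edgeR), and it did not mark the population on other foods: it had 0 counts in every Sonoran library on prickly pear, and 20 in C-9 against 0 to 2 in the Sonoran libraries on saguaro.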

How the data were processed

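Counts per assembled gene were measured in whole larvae of 6 strains on 3 foods. The authors deposited raw counts as whole numbers, and per the series' design text transcripts were assembled de novo and counted per assembled gene. The aligner and counter: not given in the sources used here. edgeR is named in the submitters' processing notes. Reads may be shared among similar copies, so levels of features of 1 component are uncertain.

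The 6 lab food libraries were fitted alone in R 4.3.3 with edgeR 4.0.16 (filterByExpr, TMM factors, quasi-likelihood F test, 4 residual degrees of freedom, Santa Catalina minus Sonoran), and calls had a Benjamini-Hochberg adjusted p below 0.05 over all 10802 features tested. SE is the log2 fold change divided by the square root of F. Log2 CPM used a prior count of 2. Each cactus was fitted the same way. Differences between foods were tested over 18 libraries with strain as a block. Pairs of libraries within a population and food had a chi-square per degree of freedom of 26.6 or more, so none of these pairs was a repeat. Pairs across foods or populations were not compared in this way. The fits were tested on simulated data, with 100 features changed per size of change. Each feature was drawn on its own, with no strain effect shared across foods. No library carried a shift common to many features, unlike C-9 in the real data. The lab food fit called 12% of features changed 2-fold and 82% of those with a log2 fold change of 2, with 9 calls among unchanged features. The prickly pear test of a difference from lab food called 2% and 31%, with 0 calls among unchanged features. Most 2-fold changes were thus missed in the simulation. Alternatives included DESeq2 1.42.0, other scalings, no filter, thinned counts and each strain left out.

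Named features are, per direction, the called feature with the largest fold change and the next with the highest mean CPM in the higher population, with at least 5 CPM in the higher population and no overlap. The comparison, groups of features and tests were chosen with earlier results of these data known.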

Additional observations from a re-analysis of the deposited data

How the results depend on the processing

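The 6 calls on lab food became 731 with DESeq2, 16 with 6 group means over all 18 libraries and 1 with counts summed per component, and 4 to 2273 with 1 strain left out, the highest without C-9; RLE size factors, library totals alone (5 higher, 3 lower), no filter and thinned counts gave 5 to 8. The cause of these differences was not tested. All 6 calls were among those of DESeq2, the 18 libraries, library totals alone, no filter, thinned counts and the fit without C-9. The labels give the same replicate numbers to different strains in the populations, and whether a number marks a shared batch was not tested. Correlations of deviations between libraries of the same number were 0.03, 0.24 and 0.24, and 5 of 6 libraries correlated best with their own number. With the number as a replicate block 20 features were called, the 6 among them. The lab food calls also called on prickly pear (3) became 25 with DESeq2, 1 with the replicate block, 0 with component sums and 2 to 5 with a strain left out. Those also called on saguaro (2) became 1 with RLE, 4 with library totals alone, 25 with DESeq2, 8 with 18 libraries, 0 with the replicate block or component sums, and 0 to 1 with a strain left out. The test of a difference from lab food gave 7 calls with DESeq2 for prickly pear and 752 for saguaro, and 0 to 1 and 0 to 0 with a strain left out; without the strain block both stayed at 0. The 4 named features kept their direction in each of 13 settings; comp37185_c1 and comp34913_c0 kept their call in all 13, comp37831_c5 lost it in 2 and comp35135_c0 in 5. The cactus medians without C-M or C-9 and the position of C-9 over all 2273 features were added after seeing the data; the medians of the 685 lower features turned sign without C-9 on both cacti. With 3 strains a population, a p above the threshold does not show that levels were equal.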
